A study of Mus musculus with 16 samples.

Results

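Tumours sampled after 10 days of ADH-503 were compared with vehicle tumours across all genes of a whole-genome array. The comparison holds 11 of the 16 arrays of the series, 5 whose time label reads 10 days and 6 whose treatment label reads vehicle, and it was made over the 30570 of 36995 gene names whose probe gave usable signal. The other 5 arrays, taken at 48 h of treatment, entered the plain fit through the shared estimate of the spread. They also entered the estimate of the slide difference where slide was a block, the choice of probe and the background filter. Their values are set beside the 10 day values. All animals were female C57BL/6 mice carrying an orthotopic pancreatic tumour, that is, tumour cells placed in the pancreas itself, and RNA came from whole tumour tissue.

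The labels state no cell line, dose, route or animal age. The treated samples carry ADH-503 as their treatment label, while their titles write LA1, which was read as the same compound. The vehicle samples have no time of their own, so their tumours may be older or younger than the treated ones. The 11 samples carry ID numbers that differ, but the labels do not say whether each number is an animal of its own, so the p-values measure the spread between samples, some of which may be technical. The arrays lay on 2 slides that divided the groups unevenly. Slide 1 held 10 day replicates 1, 2 and 3 with vehicle replicate 1, and slide 2 held 10 day replicates 4 and 5 with vehicle replicates 2 to 6. The title of vehicle replicate 2 has the same ID number as that of 48 h replicate 5, although its description has another number. Values with slide as a block and within each slide are given beside the plain values.

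ADH-503 is a small molecule agonist of CD11b, the alpha M chain that pairs with the beta2 chain CD18 to form the integrin Mac-1 of neutrophils, monocytes, macrophages and some dendritic cells. The integrin binds ICAM-1, fibrinogen and the complement fragment iC3b, and it controls how myeloid cells adhere, leave vessels and take up opsonised particles. Pancreatic tumours are rich in such myeloid cells, which shape inflammation, matrix and T cell access in this tissue. In bulk RNA, fewer cells of a type and less RNA per cell cannot be told apart.

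Among the gene groups described here, the Reg lectins combined a large median difference with the same direction on both slides, and their neighbouring promoters are shown first. Reg3a, Reg3b, Reg3d and Reg3g encode secreted C-type lectins, made by stressed acinar cells and by epithelium, of which Reg3b and Reg3g are known as antimicrobial proteins of the gut. Reg3 genes are known targets of STAT3, which binds the palindrome TTCNNNGAA. Their 4 promoter windows span 98.5 kb of chromosome 6. The 250 bases before each start site are printed 5′ to 3′ on the strand of the gene from RefSeq on build GRCm38.p6, with any match to that palindrome in capitals.

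Reg3a, chr6:78380459-78380708, plus strand: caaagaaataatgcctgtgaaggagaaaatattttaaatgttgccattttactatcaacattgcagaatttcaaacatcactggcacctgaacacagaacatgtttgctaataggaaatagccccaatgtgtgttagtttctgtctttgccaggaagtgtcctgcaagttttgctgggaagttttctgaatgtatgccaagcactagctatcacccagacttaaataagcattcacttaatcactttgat
Reg3b, chr6:78370635-78370884, plus strand: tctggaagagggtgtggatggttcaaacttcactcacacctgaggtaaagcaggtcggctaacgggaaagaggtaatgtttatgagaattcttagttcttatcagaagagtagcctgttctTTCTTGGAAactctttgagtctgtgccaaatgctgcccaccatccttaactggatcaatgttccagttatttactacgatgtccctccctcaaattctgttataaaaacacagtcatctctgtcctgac
Reg3d, chr6:78378866-78379115, minus strand: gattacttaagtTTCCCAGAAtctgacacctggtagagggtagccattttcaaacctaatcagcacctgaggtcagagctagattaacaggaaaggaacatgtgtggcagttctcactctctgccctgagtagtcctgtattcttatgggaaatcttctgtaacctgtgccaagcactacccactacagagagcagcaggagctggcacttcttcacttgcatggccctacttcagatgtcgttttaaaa
Reg3g, chr6:78468875-78469124, minus strand: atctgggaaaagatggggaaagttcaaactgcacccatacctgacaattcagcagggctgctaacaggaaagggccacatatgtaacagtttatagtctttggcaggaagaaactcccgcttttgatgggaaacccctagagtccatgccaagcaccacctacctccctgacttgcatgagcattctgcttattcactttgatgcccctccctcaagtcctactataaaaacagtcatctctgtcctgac

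The Reg3b window holds TTCTTGGAA, whose first base lies 129 bases before the start site. The Reg3d window holds TTCCCAGAA, whose first base lies 238 bases before it. The windows of Reg3a and Reg3g hold no match in these letters. The palindrome reads the same on both strands, and 2306 of 32851 windows of this length, 7.02%, hold it, so a match in 2 of 4 is a description of these letters only.

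No gene differed between 10 days and vehicle past an adjusted p of 0.05 in limma. The smallest adjusted p was 0.76, for the unnamed transcript A630052C17Rik, and 0.995 with slide as a block. At an unadjusted p under 0.05 limma took 1081 genes, 3.54% of those tested, where a share of 5% would be 1528 genes. Of these, 539 were higher at 10 days (1.76% of genes tested) and 542 lower (1.77%). With slide as a block there were 560 higher (1.83%) and 654 lower (2.14%). The number lower depended on single arrays: it was 360 without vehicle replicate 2, 821 without vehicle replicate 1 and 1111 without 10 day replicate 1.

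**Figure D1:**
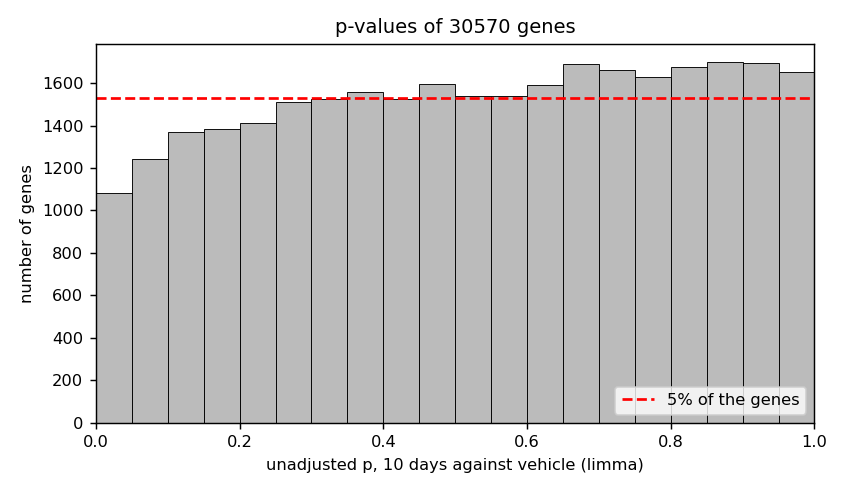
Unadjusted p-values of limma for 10 days against vehicle, as the number of genes (vertical axis) in each of 20 equal ranges of p (horizontal axis). The dashed line marks 5% of the 30570 genes, or 1528, and the first bar, at 1081, lies below it.

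Differences were small for most genes. The log2 difference was under 0.5 in size for 90.5% of genes, with a median standard error of 0.194 and a median of -0.01 over all genes. Within slide 1 the all-gene median was 0.13, and within slide 2 it was -0.05, and within-slide values below are to be read against these medians rather than against 0. In 66 genes (0.216%) the 5 values at 10 days did not overlap the 6 vehicle values, 37 above (0.121%) and 29 below (0.0949%). Across genes, which are not independent replicates, arrays correlated at r = 0.942 to 0.973, with the same mean of 0.962 within and between the groups.

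The labelled tissue was borne out by its markers. Keratins Krt8, Krt18 and Krt19, the acinar enzymes Cpa1, Cela1 and Amy2a5, the leukocyte gene Ptprc, the macrophage gene Adgre1, the T cell gene Cd3e and the stromal genes Col1a1, Pdgfra and Dcn were well above background on all 11 arrays. The gene lists used below number 52 and cover 716 tested genes. No list member had groups that did not overlap. Over the lists 37 genes were lower and 1 higher at an unadjusted p under 0.05, set against 1.77% and 1.76% of all genes, and none passed after adjustment. Of all genes tested 15899 (52%) were lower and 14671 (48%) higher at 10 days, and counts of list members in each direction are to be read beside these shares. Members of a list can vary together, so they are not separate observations. These lists were drawn up with earlier results of these data known, so their counts describe and do not test.

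The target integrin came out at the same level in both groups. Itgam, encoding CD11b, measured 5.11, 5.06, 5.14, 5.02 and 5.15 on the 10 day arrays, in replicate order, as log2 signal relative to the 75th percentile of the array. Its vehicle values ran from 4.87 to 5.47 with a median of 5.04 over the 5 arrays that kept the spot. The log2 difference was -0.02 ± 0.12 (SE), and 0.03 ± 0.13 with slide as a block. The 10 day values lay inside the vehicle range, and the probe's sign depended on the setting.

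Itgb2, encoding the partner chain CD18, measured 4.69, 4.91, 4.98, 4.94 and 5.10 at 10 days, against 4.65 to 5.06 with a median of 5.03 in vehicle. The groups overlapped, with a log2 difference of -0.02 ± 0.10 (SE). Both chains gave bright signal on every array that kept the spot. Itgad, the alpha D chain of the same integrin family, measured -2.88, -5.06, -4.65, -4.97 and -2.28 at 10 days and from -3.54 to 1.84 with a median of -2.46 in vehicle. Of the 10 day arrays 3 lay below all vehicle arrays, and the difference of -2.29 ± 1.16 (SE) did not pass. Itgax, the CD11c chain, differed by -0.20 ± 0.17 (SE). The ligand genes C3 and Fgb differed by -0.22 ± 0.13 and -0.70 ± 0.54 (SE). Of 14 tested genes of beta2 integrins and their ligands 13 were lower and 1 higher, beside 52% of all genes lower. Their median was -0.12, and none had an unadjusted p under 0.05. The median was -0.06 once slide was a block, -0.24 on slide 1 alone and 0.03 on slide 2 alone.

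The secreted Reg lectins were lower at 10 days in 6 of 7 genes, 5 of them with an unadjusted p under 0.05 in limma. Their median log2 difference was -1.27, beside -0.01 for all genes. It was -1.37 in the blocked fit, -1.07 among slide 1 arrays and -1.59 among slide 2 arrays, and the same number of genes, 5, had a blocked unadjusted p under 0.05. Of all genes 1.77% were lower at that unadjusted p, and 2.14% in the blocked fit. No adjusted p of the family passed. In the list of STAT3 and acute phase targets 11 of 17 genes were lower and 6 higher, with a median of -0.04. That median was -0.05 with slide as a block, and any part of STAT3 in the Reg values was not tested.

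Reg3g measured -3.44, -2.46, -1.07, -3.12 and -5.67 at 10 days, against -1.98 to 0.06 with a median of -0.62 in vehicle. Replicates 1, 2, 4 and 5 lay below every vehicle array, and replicate 3 lay inside the vehicle range. The log2 difference was -2.33 ± 0.66 (SE), with means of -3.15 ± 1.68 (SD, n = 5) and -0.82 ± 0.76 (SD, n = 6). Its probe lies on chromosome 6 from 78416420 to 78416479 (mm9). It was -2.82 ± 0.66 once slide was a block, -1.67 on slide 1 alone and -3.54 on slide 2 alone. Replicate 5, on slide 2, was not well above background, so its value is only a bound. The differences of -2.33, -2.82 and -3.54 all include that array, and without it the plain difference was -1.70.

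Reg3a followed the same arrangement, at -2.03, -1.51, -0.23, -1.43 and -1.74, with vehicle from -1.03 to 0.89 and a median of 0.35. Again only 10 day replicate 3 reached into the vehicle range. The log2 difference was -1.57 ± 0.42 (SE), and it was -1.71 within slide 1 and -1.72 within slide 2. Reg3b, whose window holds a match to the palindrome, measured -2.18, -1.67, 0.07, -1.10 and -2.08 against -0.88 to 0.79 with a median of 0.34. Replicate 3 was once more the exception, and the difference was -1.60 ± 0.47 (SE). Reg3d, the other gene with a match, measured -2.45, -2.16, -1.24, -2.49 and -2.30 against -1.78 to -0.04 with a median of -0.81. Here too 4 of 5 lay below all vehicle values, with a difference of -1.27 ± 0.38 (SE).

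Reg2, a family member expressed in the exocrine and endocrine pancreas, measured 0.69, 1.30, 2.12, 0.80 and 0.18 at 10 days and 1.0 to 2.77 with a median of 2.36 in vehicle. Of the 5 values 3 lay below all vehicle arrays, and the difference was -1.12 ± 0.41 (SE). Reg1 differed by -0.88 ± 0.57 (SE), and its 10 day values spread from -2.40 to 0.78, past the vehicle range of -1.58 to 0.65 at both ends. Reg4, an intestinal member, was above background on 3 arrays of each group and differed by 0.26 ± 0.67 (SE). The 60-base probes of the family share runs of at most 7 bases with each other; whether each also matches another member's transcript was not tested. At 48 h, against the same vehicle arrays, Reg3g differed by 0.08 ± 0.66, Reg3a by 0.01 ± 0.42, Reg3b by -0.32 ± 0.47 and Reg3d by 0.11 ± 0.38 (SE). For none of these genes did the difference between 10 days and 48 h pass.

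**Figure D2:**
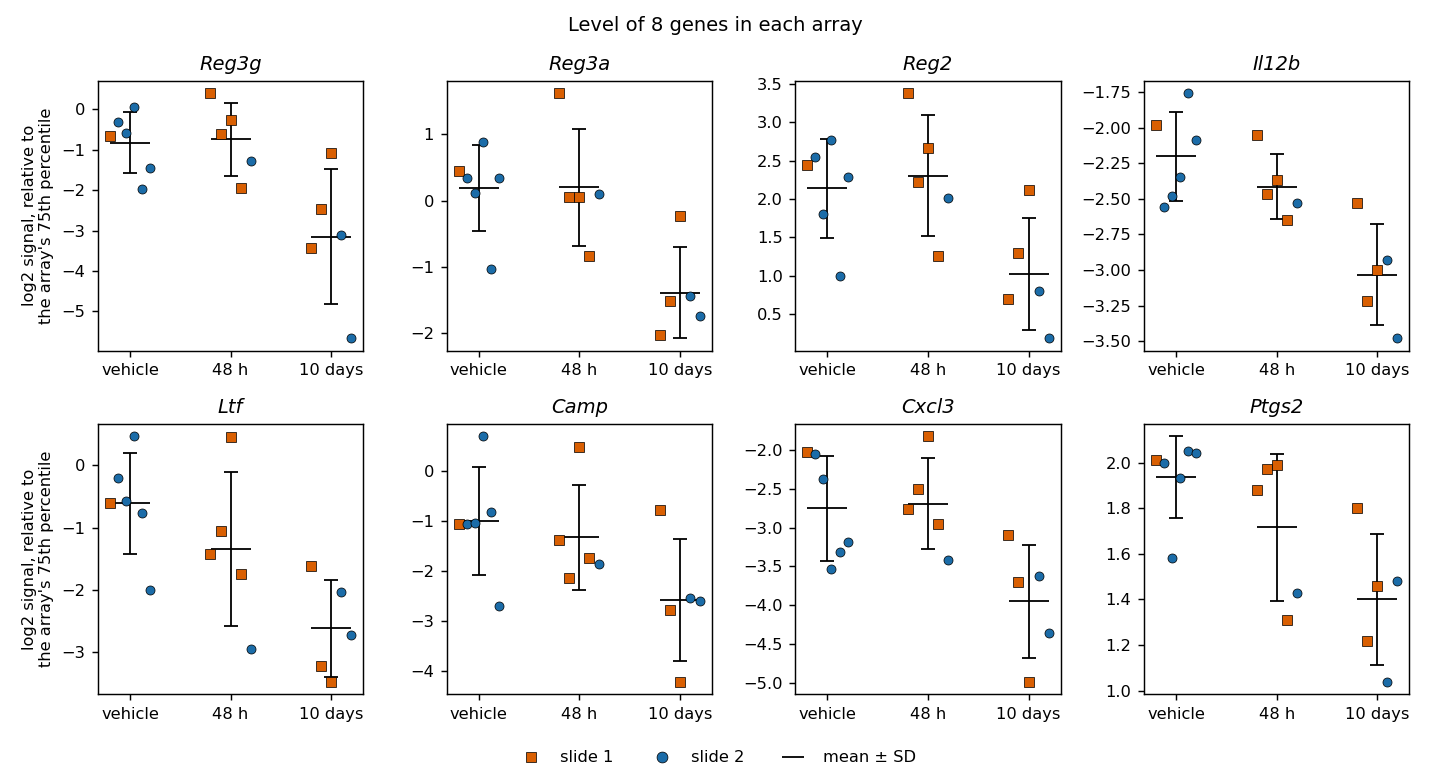
Log2 signal of 8 genes, relative to the 75th percentile of the array, in each vehicle, 48 h and 10 day array (points, shaped and coloured by slide), with mean ± SD as bars. For Reg3g and Reg3a only 10 day replicate 3, at -1.07 and -0.23, reaches into the vehicle range, and for Il12b only replicate 1, at -2.53.

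The cytokine chain genes of the IL-12 and IL-23 family were mostly lower. IL-12 drives T helper 1 and natural killer cell responses, IL-23 sustains T helper 17 cells, and both are made by activated macrophages and dendritic cells. Il12b, for the p40 subunit common to both, measured -2.53, -3.22, -3.0, -2.93 and -3.48 at 10 days, against -2.56 to -1.76 with a median of -2.22 in vehicle. All but replicate 1 lay below every vehicle array. The log2 difference was -0.83 ± 0.18 (SE), the second smallest p in limma among named genes lower at 10 days, with an unadjusted p of 0.000371 and an adjusted p that rounds to 1. It was -0.93 ± 0.19 in the blocked fit, -0.94 among slide 1 arrays and -0.96 among slide 2 arrays, and it stayed between -0.95 and -0.72 when each array was left out.

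Il23a, the p19 subunit of IL-23, measured -2.03, -4.28, -2.40, -3.07 and -2.62 at 10 days, against -2.55 to -0.86 with a median of -2.06 in vehicle. The groups overlapped through replicates 1 and 3, and the difference was -0.90 ± 0.41 (SE). Il12a, the p35 subunit, differed by -0.25 ± 0.18, Il27 by -0.19 ± 0.12 and the receptor gene Il12rb2 by -0.32 ± 0.19 (SE). Of 10 tested family genes 9 were lower, with a median of -0.23. At an unadjusted p under 0.05, 2 were lower, beside 1.77% of all genes. The family's median was also -0.23 once slide was a block, -0.18 on slide 1 alone and -0.26 on slide 2 alone. The 48 h value of Il12b against the same vehicle arrays was -0.21 ± 0.18 (SE).

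Neutrophil granule and surface genes were lower in 17 of 19 cases, 3 at an unadjusted p under 0.05, all 3 of them granule proteins. Of all genes 1.77% were lower at that p. The list's median was -0.24, and it was -0.31 in the blocked fit, -0.36 among slide 1 arrays and -0.20 among slide 2 arrays. Ltf, encoding the iron-binding protein lactoferrin of the secondary granule, measured -1.62, -3.22, -3.47, -2.04 and -2.73 at 10 days, against -2.0 to 0.46 with a median of -0.59 in vehicle. All but replicate 1 lay below the vehicle range. The difference was -2.0 ± 0.54 (SE), -2.17 within slide 1 and -1.77 within slide 2.

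Camp, the antimicrobial cathelicidin of the same granule, measured -0.77, -2.77, -4.21, -2.54 and -2.59 against -2.70 to 0.69 with a median of -1.05. The groups overlapped, and the difference was -1.58 ± 0.63 (SE). Ngp, neutrophilic granule protein, measured -0.90, -2.22, -4.73, -2.26 and -2.68 against -3.28 to 0.76 with a median of -0.54, a difference of -1.72 ± 0.76 (SE) with 1 array below all vehicle arrays. Replicate 3 was lowest in all 3 granule genes and replicate 1 was highest. The calprotectin chains S100a8 and S100a9, abundant in the neutrophil cytosol, differed by -0.91 ± 0.54 and -0.77 ± 0.41 (SE). S100a8 lay below all vehicle arrays on every 10 day array but replicate 1. The myeloperoxidase gene Mpo, of the primary granule, differed by -0.22 ± 0.42 (SE), Elane by -0.08 ± 0.38 and the maturation marker Ly6g by -0.38 ± 0.28.

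Signals that draw neutrophils were measured through the CXCR2 ligands and granulocyte growth factors, where 6 of 8 tested genes were lower with a median of -0.33 (-0.42 with slide as a block). Cxcl3, a CXCR2 ligand, measured -3.09, -3.70, -4.98, -3.62 and -4.35 at 10 days, against -3.53 to -2.03 with a median of -2.79 in vehicle. All but replicate 1 lay below the vehicle range. The difference was -1.19 ± 0.38 (SE), and -1.43 ± 0.40 with slide as a block. The more abundant ligand Cxcl1 differed by -0.18 ± 0.17, and the receptor Cxcr2 by -0.65 ± 0.42 (SE). Csf3, the granulocyte colony-stimulating factor, stood at 0.75 ± 0.53 (SE), but vehicle replicate 1 and 10 day replicate 5 were not well above background for it, and it was 0.45 without the former and 1.20 without the latter. Its values of 2.76 on slide 1 alone and -0.32 on slide 2 alone rest on those 2 arrays and have no settled size.

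Inflammatory mediators were lower in part. Ptgs2, the inducible cyclooxygenase of prostaglandin synthesis, measured 1.80, 1.22, 1.46, 1.04 and 1.48 at 10 days, against 1.58 to 2.05 with a median of 2.01 in vehicle. Replicates 2 to 5 lay below every vehicle array. The difference was -0.54 ± 0.16 (SE), -0.63 ± 0.17 once slide was a block, -0.52 on slide 1 alone and -0.66 on slide 2 alone. The prostaglandin and leukotriene list as a whole was mixed, with 10 of 17 genes higher and a median of 0.01. Its differences ran from -2.07 to 0.32. At an unadjusted p under 0.05 in limma, 2 of its genes were lower, Ptgs2 among them, beside 1.77% of all genes. Ltb4r1, the receptor for leukotriene B4, differed by -0.41 ± 0.22 (SE).

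Several cytokines induced by myeloid activation were lower by more once slide was a block. Lif, an IL-6 family cytokine made by tumour and stroma, measured 0.15, -0.56, -0.45, -1.65 and -0.96 at 10 days, against -0.44 to 0.75 with a median of 0.20 in vehicle. All but replicate 1 lay below the vehicle range. The plain difference was -0.84 ± 0.40 (SE), and the blocked one -1.31 ± 0.31, with an unadjusted limma p of 0.0517 and 0.000761. Il1a, an alarmin of the IL-1 family, measured 0.34, -0.38, -0.72, -1.86 and -0.61 against -0.38 to 0.67 with a median of 0.11. Its differences were -0.77 ± 0.37 plain and -1.11 ± 0.35 blocked (SE).

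Oncostatin M (Osm) differed by -0.30 ± 0.15, Il1b by -0.26 ± 0.14 and the IL-1 receptor antagonist Il1rn by -0.41 ± 0.20 (SE). In the IL-1 family and inflammasome list 11 of 15 genes were lower, with a median of -0.15 (-0.30 with slide as a block). Among 16 inflammatory cytokine genes 9 were lower and 7 higher, and the median was -0.03. That median was 0.11 within slide 1 and -0.20 within slide 2, which is 0.02 and 0.15 below the all-gene median of each slide.

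Feedback genes of NF-kB gave a mixed picture. Tnip3, an inhibitor of the pathway, measured 1.64, 1.55, 1.47, 0.90 and 1.72 at 10 days and 1.53 to 2.18 with a median of 1.91 in vehicle, a difference of -0.45 ± 0.16 (SE). Replicates 3 and 4 lay below all vehicle arrays. Tnfaip3, the ubiquitin-editing inhibitor A20, differed by -0.35 ± 0.18, and by -0.50 ± 0.17 with slide as a block (SE). The endosomal RNA sensors Tlr3 and Tlr7 were higher by 0.28 ± 0.13 and 0.51 ± 0.28 (SE), and another probe of Tlr3 gave -0.11. Of the 22 genes of the Toll-like receptor and NF-kB list 12 were lower and 10 higher, with a median of -0.01.

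The immediate early and heat shock list had 15 of 20 genes lower and a median of -0.16. At an unadjusted p under 0.05, 2 were lower, and 4 with slide as a block. The shares of all genes were 1.77% and 2.14%. The phosphatases of MAP kinases stood at the front. Dusp5, which acts on ERK in the nucleus, measured 2.96, 2.76, 2.65, 2.03 and 2.63 against 2.86 to 3.11 with a median of 3.02. All but replicate 1 lay below the vehicle range, with a difference of -0.40 ± 0.16 (SE). Dusp1 and Dusp4 differed by -0.29 ± 0.13 and -0.46 ± 0.23 (SE). The list's median was -0.07 within slide 1 and -0.30 within slide 2.

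Of 15 macrophage markers 13 were higher and 2 lower, with a median of 0.07 (0.06 in the blocked fit, 0.06 among slide 1 arrays and 0.07 among slide 2 arrays), and none had an unadjusted p under 0.05. Relative to the all-gene median of each slide the list lay at -0.07 on slide 1 and 0.12 on slide 2. Within slide 1, 7 of the 15 markers were lower, and within slide 2, 4 were. The list's mean per array ran from 3.86 to 3.97 at 10 days and from 3.66 to 3.96 in vehicle. Csf1r, the receptor for the macrophage growth factor CSF1, measured 4.60, 4.48, 4.44, 4.35 and 4.53 at 10 days and 4.18 to 4.48 with a median of 4.33 in vehicle. The groups overlapped, with a difference of 0.14 ± 0.09 (SE), and a second probe gave -0.003.

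C1qa, a chain of the first complement component that tissue macrophages make, differed by 0.16 ± 0.11 (SE), and Fcgr3, encoding an Fc receptor, by 0.09 ± 0.10. Cd14, the coreceptor for lipopolysaccharide, was 1 of the 2 markers that were lower. It measured 3.24, 3.36, 3.19, 2.42 and 2.54 at 10 days, so that the slide 2 arrays, replicates 4 and 5, were the low ones, against 2.93 to 3.48 with a median of 3.33 in vehicle. Its difference was -0.31 ± 0.18 plain and -0.53 ± 0.13 blocked (SE). The scavenger receptors of alternative activation, Mrc1 and Cd163, differed by 0.21 ± 0.12 and 0.29 ± 0.16 (SE). For Cd163 the difference was 0.29 within slide 1 and -0.05 within slide 2.

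The monocyte chemokine list of the CCR2 axis was lower in 8 of 11 genes with a median of -0.03. Ccl4, a chemokine of activated myeloid cells, differed by -0.40 ± 0.19 plain and -0.58 ± 0.17 blocked (SE), while Ccl8 differed by 0.21 ± 0.12. Complement genes were higher in 12 of 16 cases with a median of 0.11, and 0.05 with slide as a block.

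**Figure D3:**
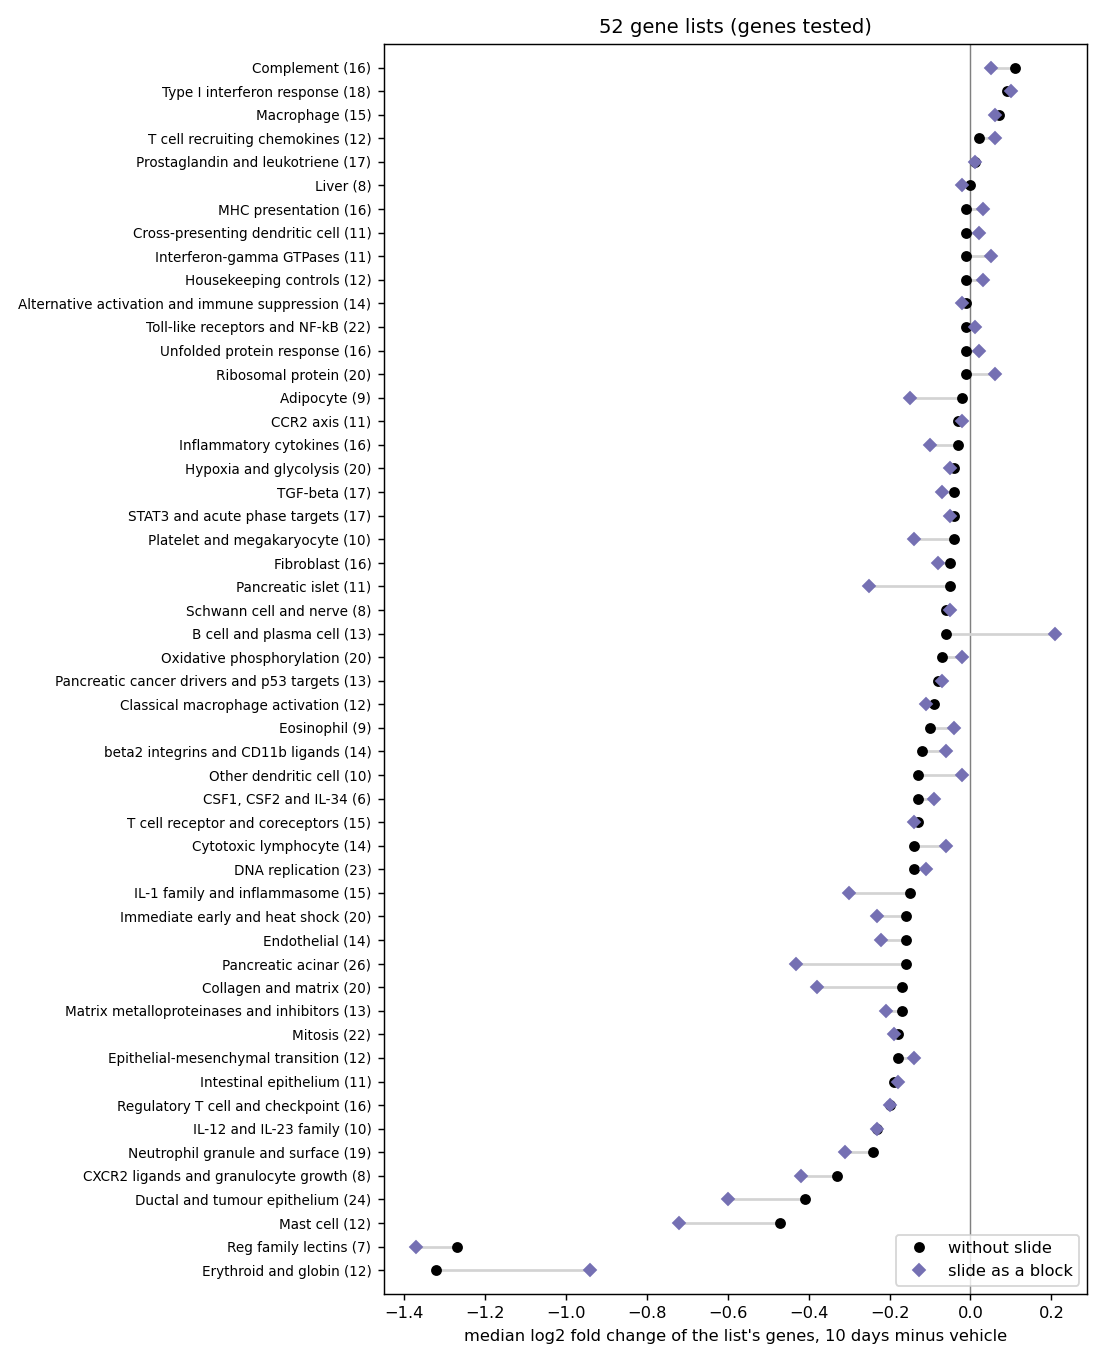
Median log2 difference between 10 days and vehicle (horizontal axis) for each of 52 gene lists (vertical axis, number of tested genes in brackets), without slide (circles) and with slide as a block (diamonds). Erythroid genes and the Reg lectins lie farthest to the left, at -1.32 and -1.27 without slide, and complement farthest to the right of the circles, at 0.11; with slide as a block it lay at 0.05 and B cell genes at 0.21.

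Mast cell genes were lower in 10 of 12 cases, with a median of -0.47. The median was -0.72 once slide was a block, -0.90 on slide 1 alone and -0.19 on slide 2 alone. Mcpt4, a chymase of connective tissue mast cells, measured -1.26, -3.01, -2.40, -1.57 and -1.09 at 10 days, against -1.63 to 0.35 with a median of -0.75 in vehicle. Replicates 2 and 3, both on slide 1, lay below all vehicle arrays. The difference was -1.12 ± 0.42 (SE), with -1.88 within slide 1 and -0.51 within slide 2. The mucosal protease Mcpt1 differed by -0.94 ± 0.46, the tryptase Tpsb2 by -0.63 ± 0.36 and the IgE receptor chain Fcer1a by -0.47 ± 0.26 (SE). All 9 eosinophil markers were lower in the plain comparison, with a median of -0.10, led by the granule protein gene Prg2 at -0.81 ± 0.41 (SE). With slide as a block 6 of the 9 were lower and the median was -0.04. The eosinophil median was -0.13 within slide 1, with 8 lower, and 0.15 within slide 2, with 3 lower.

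Erythroid genes had the lowest median of the 52 lists, -1.32, and all 12 tested were lower, 6 at an unadjusted p under 0.05. Of all genes 1.77% were lower at that p, and 2.14% with slide as a block. In the blocked fit 1 erythroid gene had an unadjusted p under 0.05, and the list's median was -0.94. Within slide 1 the median was 0.13, the same as that of all genes there, and within slide 2 it was -0.92. Hba-a1, an alpha globin, measured -1.62, -1.52, -0.39, 0.93 and -0.07 at 10 days, against -0.13 to 3.61 with a median of 1.13 in vehicle. Replicates 4 and 5, on slide 2, lay inside the vehicle range and the slide 1 replicates below it. The difference was -1.89 ± 0.73 plain and -1.42 ± 0.76 blocked (SE).

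The alpha globin genes are near-identical copies, and their signals cannot be told apart with certainty. Hbb-b2, a beta globin, differed by -2.66 ± 1.03 (SE), Hba-a2 by -2.09 ± 0.85, and Alas2, the first enzyme of haem synthesis in red cell precursors, by -1.48 ± 0.67. For Alas2 the value was 0.70 within slide 1 and -2.52 within slide 2. The list's mean per array ran from -3.94 to -2.73 at 10 days and from -3.01 to -0.11 in vehicle, so the ranges overlapped. Globin signal in whole tissue includes blood left in the sample, and its part in these values was not tested.

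Lymphocyte lists had small median differences, while single genes were less precise. T cell receptor and coreceptor genes were lower in 13 of 15 cases, with a median of -0.13, and none had an unadjusted p under 0.05. That median was 0.02 within slide 1, with 7 lower, and -0.20 within slide 2, with 11 lower. Cd8a, the coreceptor of cytotoxic T cells, measured -2.22, -1.61, -2.77, -1.82 and -2.25 at 10 days, against -2.86 to 0.35 with a median of -1.60 in vehicle. All 10 day values lay inside the vehicle range, the difference was -0.73 ± 0.47 (SE), and a second probe gave 0.18. Among 14 cytotoxic lymphocyte genes 9 were lower and 5 higher, with a median of -0.14. Perforin (Prf1) differed by 0.28 ± 0.16 (SE), and granzyme A (Gzma) by -0.93 ± 0.40 with 0.55 within slide 1 and -1.21 within slide 2. The unadjusted limma p of Gzma was 0.0357, and 0.123 with slide as a block.

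Checkpoint and regulatory T cell genes were lower in 14 of 16 cases with a median of -0.20, and the same with slide as a block. Cd80, the costimulatory ligand of CD28 and CTLA-4, measured 2.58, 2.27, 2.22, 2.64 and 2.54 against 2.60 to 3.0 with a median of 2.75. All but replicate 4 lay below the vehicle range, with a difference of -0.32 ± 0.15 (SE). Cd274, encoding PD-L1, differed by -0.29 ± 0.15, with -0.57 within slide 1 and -0.02 within slide 2. Foxp3, the transcription factor of regulatory T cells, differed by -0.26 ± 0.19 (SE).

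Dendritic cell genes had medians of -0.01 for the cross-presenting list and -0.13 for the other dendritic cells. The cross-presenting median was -0.21 within slide 1, where all 11 genes were lower, and 0.33 within slide 2, where 1 was. Cd83, a maturation marker, measured 4.09, 4.03, 3.84, 3.28 and 3.81 against 3.94 to 4.19 with a median of 4.14, a difference of -0.30 ± 0.13 (SE). Replicates 3, 4 and 5 lay below the vehicle range. Irf4, a transcription factor of type 2 conventional dendritic cells, differed by -0.34 ± 0.15 (SE).

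T cell recruiting chemokines had 7 of 12 genes higher and a median of 0.02. Cxcl9, a CXCR3 ligand induced by interferon gamma, differed by -0.79 ± 0.51 (SE), with -1.72 within slide 1 and 0.33 within slide 2, and the B cell chemokine Cxcl13 differed by 0.78 ± 0.54. Type I interferon response genes were higher in 13 of 18 cases with a median of 0.09, none at an unadjusted p under 0.05, and Stat2, a subunit of their transcription factor, differed by 0.19 ± 0.14 (SE). Interferon-gamma GTPases had a median of -0.01, although Gbp6 stood at 0.90 ± 0.55 (SE). The 16 genes of MHC presentation lay between -0.11 and 0.11. B cell and plasma cell genes had a median of -0.06, and 0.21 with slide as a block.

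The ductal and tumour epithelium list had within-slide medians of opposite sign, and whether the slides differ was not tested. Of 24 ductal and tumour epithelium markers 22 were lower in the plain comparison, with a median of -0.41, or -0.60 with slide as a block. Within slide 1 the median was 0.23 with 4 of 24 lower, and within slide 2 it was -1.23 with 23 of 24 lower. Relative to the all-gene median of each slide these were 0.10 and -1.18. Epcam, an adhesion molecule of epithelium, measured -1.14, -2.47, -0.49, -1.80 and -1.27 at 10 days and -1.70 to 0.24 with a median of -0.60 in vehicle. The groups overlapped, with a difference of -0.72 ± 0.54 (SE). Epcam was lower within both slides, at -0.65 within slide 1 and -0.82 within slide 2. The ductal transcription factor Sox9 differed by -0.43 ± 0.34, the keratin Krt7 by -0.39 ± 0.34 and the mucin Muc4 by -0.42 ± 0.37 (SE). In that order, these genes stood at 0.19, 0.05 and 0.33 within slide 1 and at -1.02, -0.92 and -1.29 within slide 2. None of the 24 had an unadjusted p under 0.05.

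Acinar cells make the digestive enzymes of the normal pancreas, and their genes also had within-slide medians of opposite sign. In the plain comparison 20 of 26 were lower with a median of -0.16, which was -0.43 in the blocked fit, 0.34 among slide 1 arrays and -1.07 among slide 2 arrays (0.21 and -1.02 relative to all genes). The list's mean on the 10 day arrays ran from -0.73 to 1.34, wider than the -0.61 to 0.94 of vehicle. Amy2a5, pancreatic amylase, measured 3.42, 4.14, 4.30, 3.34 and 3.55 at 10 days against 3.58 to 4.45 with a median of 4.11. Replicates 1, 4 and 5 lay below all vehicle arrays, and the difference was -0.33 ± 0.20 (SE). The trypsin gene Try5 differed by -0.51 ± 0.34, and Prss1 by 0.48 ± 0.36 (SE). Unlike the list's median, these genes kept their sign within both slides. Within slide 1 Amy2a5, Try5 and Prss1 stood at -0.11, -0.51 and 0.31, and within slide 2 at -0.64, -1.03 and 0.22. Intestinal epithelium genes had medians of 0.68 within slide 1 and -0.71 within slide 2, and islet genes -0.16 and -0.41. The signal of acinar and epithelial genes thus varied with array and slide. The shares of normal pancreas and epithelium in the samples were not measured, and their part in the Reg values was not tested. In replicate order, the acinar mean on the 10 day arrays was -0.41, 0.99, 1.34, -0.73 and -0.53, beside Reg3g at -3.44, -2.46, -1.07, -3.12 and -5.67. The 3 arrays with the lower acinar means, replicates 1, 4 and 5, were also the 3 with the lower Reg3g values. The same held for Reg3d and Reg2, while for Reg3a and Reg3b the 3 lowest arrays were replicates 1, 2 and 5. Replicate 3 was highest in the acinar mean and in each of these genes.

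**Figure D4:**
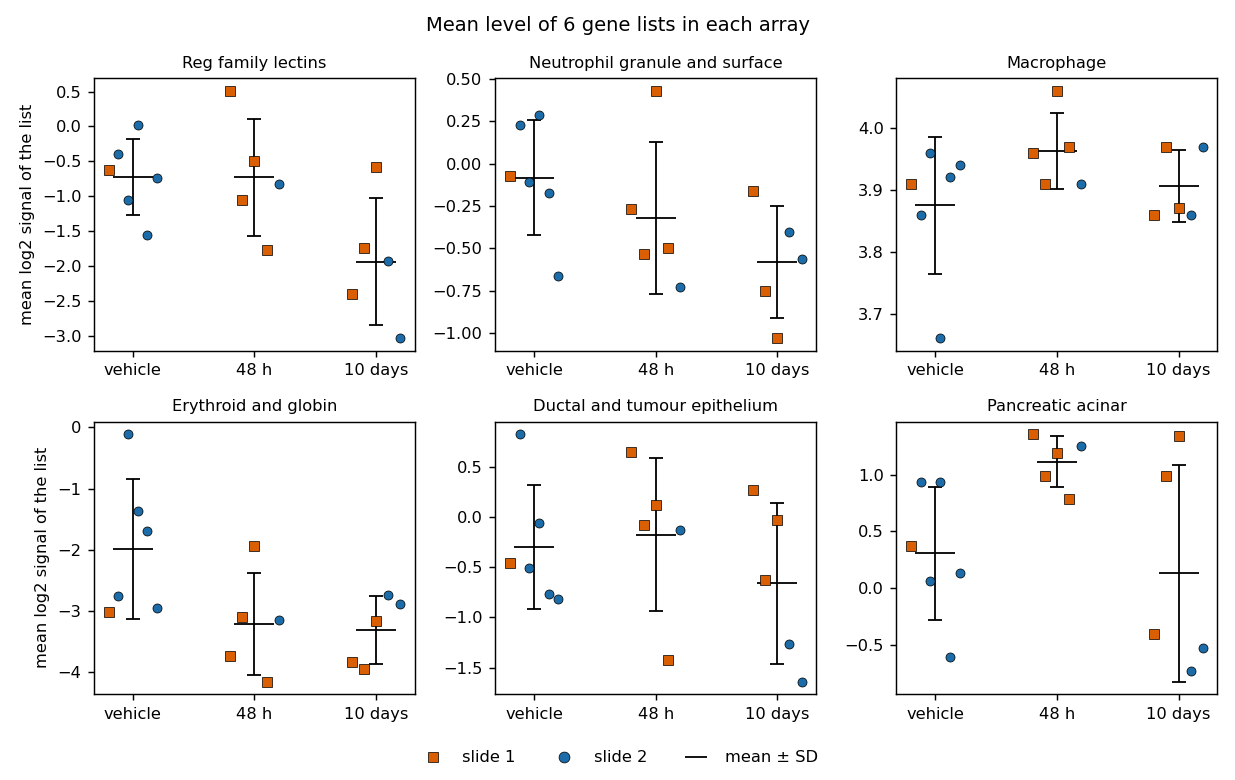
Mean log2 signal of the genes of 6 lists in each vehicle, 48 h and 10 day array (points, shaped and coloured by slide), with mean ± SD as bars. The acinar means at 10 days span -0.73 to 1.34, and the macrophage means lie within 3.86 to 3.97 at 10 days and 3.66 to 3.96 in vehicle.

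Genes of cell division were lower in nearly all cases, by small amounts and mostly on slide 1. Among 22 mitosis genes 20 were lower with a median of -0.18, which was -0.63 within slide 1 and -0.03 within slide 2. Among 23 DNA replication genes 21 were lower with a median of -0.14, which was -0.31 within slide 1 and 0.05 within slide 2. Mcm5, a subunit of the replicative helicase, measured -1.82, -2.12, -1.26, -1.02 and -1.02 at 10 days, against -1.33 to -0.52 with a median of -0.73 in vehicle. Replicates 1 and 2, on slide 1, lay below all vehicle arrays, and the difference was -0.62 ± 0.22 (SE).

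Cdc45, which joins the helicase at the fork, measured -1.88, -2.10, -1.44, -1.23 and -1.40 against -1.35 to -0.96 with a median of -1.26, a difference of -0.39 ± 0.16 (SE). All but replicate 4 lay below the vehicle range. Mcm10 differed by -0.40 ± 0.17, and its second probe gave 0.06. Topoisomerase Top2a differed by -0.47 ± 0.19 (SE), with -1.01 within slide 1 and -0.21 within slide 2, and survivin (Birc5) by -0.26 ± 0.13. Slide 1 has a single vehicle array, vehicle replicate 1, so its within-slide values rest on that array.

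**Figure D5:**
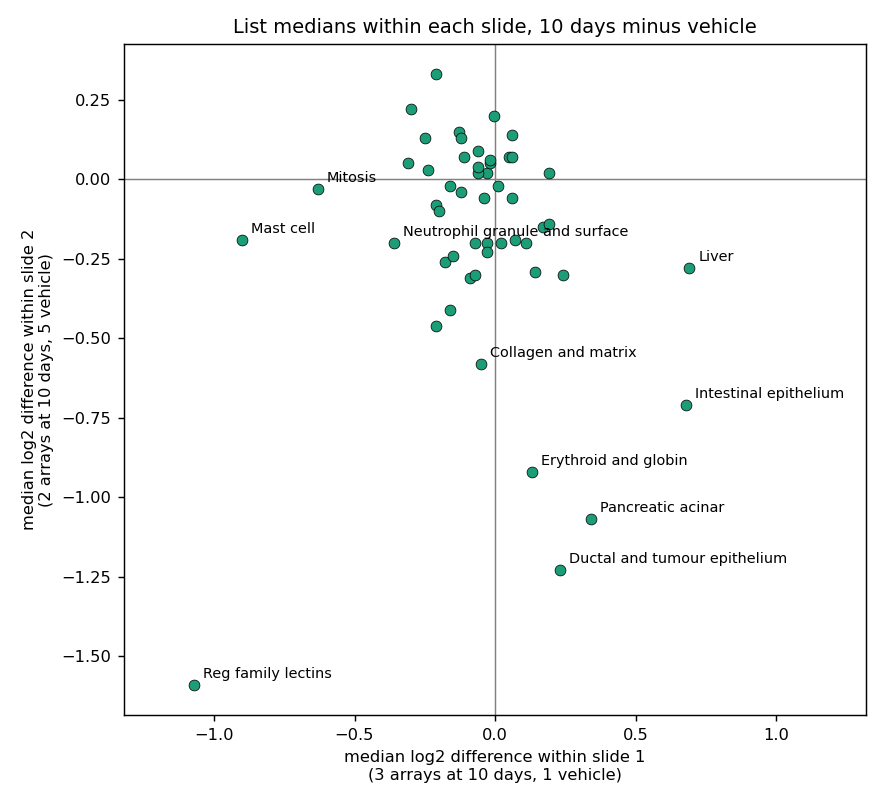
Median log2 difference between 10 days and vehicle within slide 1 (horizontal axis) and within slide 2 (vertical axis), 1 point for each of 52 gene lists. The Reg lectins lie far below 0 on both axes, at -1.07 and -1.59, while the acinar, ductal, intestinal and liver lists lie above the all-gene median of 0.13 on slide 1 and below that of -0.05 on slide 2.

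Collagen and matrix genes were lower in 17 of 20 cases, with a median of -0.17, or -0.38 once slide was a block, -0.05 on slide 1 alone and -0.58 on slide 2 alone. Tnc, tenascin C of activated stroma, measured -1.79, -2.0, -1.69, -1.74 and -2.45 against -2.05 to -1.03 with a median of -1.44, a difference of -0.43 ± 0.20 (SE). Only replicate 5 lay below all vehicle arrays. Thbs1, thrombospondin 1, differed by -0.29 ± 0.17 plain and -0.43 ± 0.17 blocked (SE).

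Timp1, an inhibitor of metalloproteinases, measured 2.15, 1.66, 2.29, 2.07 and 1.99 against 1.99 to 2.81 with a median of 2.50, with a difference of -0.40 ± 0.18 (SE) and overlapping groups. Stromelysin (Mmp3) differed by -0.69 ± 0.42 plain and -1.05 ± 0.40 blocked. Inhba, the activin chain of the TGF-beta superfamily, measured -0.65, -2.09, -2.04, -2.33 and -1.59 against -1.23 to 0.26 with a median of -0.96. All but replicate 1 lay below the vehicle range, with a difference of -1.0 ± 0.41 (SE), -1.21 within slide 1 and -1.14 within slide 2. The TGF-beta list as a whole had a median of -0.04, fibroblast markers -0.05 and endothelial markers -0.16.

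Stress and housekeeping lists lay near the all-gene median in the plain comparison. The unfolded protein response had a median of -0.01, with Herpud1 and Chac1 at -0.28 ± 0.13 and -0.39 ± 0.20 (SE). Chac1 stood at -0.67 ± 0.20 at 48 h against the same vehicle arrays. Ribosomal protein and housekeeping genes had medians of -0.01 each, oxidative phosphorylation -0.07 and hypoxia and glycolysis -0.04. Oxidative phosphorylation had a median of -0.25 within slide 1, with 19 of 20 genes lower, and 0.13 within slide 2, with 3 lower. The ribosomal protein median was -0.12 within slide 1, with 16 of 20 lower, and 0.13 within slide 2, with 1 lower.

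The named genes with the smallest unadjusted p numbered 10 in each direction, and each kept its direction with slide as a block and within both slides. They were chosen by their p on these same arrays, so the kept direction is no separate support. Within slide 1, which has 1 vehicle array, Olfr1200 stood at only -0.07 and Setmar at 0.22, where the all-gene median was 0.13. Galr2, a galanin receptor, led those that were higher. It measured -3.71, -3.38, -3.37, -3.87 and -2.74 at 10 days, against -6.27 to -4.44 with a median of -5.26 in vehicle, where 5 of 6 arrays were above background. The groups did not overlap, and the difference was 1.86 ± 0.35 (SE), or 1.75 ± 0.39 with slide as a block. At 48 h it stood at -0.29 ± 0.35 against the same vehicle arrays.

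Mexis, a noncoding RNA linked to cholesterol efflux through Abca1 in macrophages, measured -2.76, -2.60, -2.63, -2.73 and -2.63 at 10 days, against -4.09 to -2.97 with a median of -3.69 in vehicle. The groups did not overlap, and the 10 day values were close together. The difference was 0.95 ± 0.24 (SE), beside 0.78 ± 0.24 at 48 h. Ppef2, a phosphatase of sensory neurons, differed by 0.90 ± 0.20, the histone methyltransferase gene Setmar by 0.93 ± 0.22, Spata45 by 0.82 ± 0.21 and Platr27 by 1.05 ± 0.28 (SE). Stk35os1 differed by 0.68 ± 0.19.

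For Rab11fip2, Nanos3 and Slx1b the probes disagreed. Rab11fip2, an effector of recycling endosomes, differed by 0.45 ± 0.12 (SE) with groups that did not overlap, but its other probe gave -1.16. Nanos3 and Slx1b stood at 0.52 ± 0.14 and 0.58 ± 0.16 (SE), and their other probes at -0.22 and -0.74. Averaged over probes, Rab11fip2 and Slx1b had the opposite sign.

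Among genes lower at 10 days, Olfr1247, an olfactory receptor, measured -4.37, -4.99, -4.43, -5.72 and -5.31 against -4.24 to -3.17 with a median of -3.54. The groups did not overlap, and the difference was -1.38 ± 0.29 (SE). Lhfpl4, a partner of inhibitory GABA receptors, measured -5.00, -8.04, -4.52, -5.59 and -4.86 against -3.87 to -3.02 with a median of -3.64. The groups did not overlap, with a difference of -2.05 ± 0.52 (SE) that was -1.45 at its smallest when 1 array was left out. The melatonin receptor Mtnr1a differed by -1.50 ± 0.37, otoancorin (Otoa) by -1.69 ± 0.49, Arhgap33os by -0.85 ± 0.25 and Olfr1200 by -0.62 ± 0.18 (SE). Il12b, Reg3a, Ltf and Reg3g made up the rest of these 10 genes. Adjusted p-values of all 20 genes round to 1 in limma.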

How the data were processed

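Whole tumour RNA was labelled with Cy5 and hybridised to 1-colour Agilent arrays, per the labels' protocols. The submitters' processing notes name Agilent Feature Extraction 11.5.1.1 for reading the images. Per the file headers, the processed signal is a background-corrected intensity on a linear scale, with surrogate values for dim spots, and probe positions are on mm9. The authors also deposited a quantile-normalized log2 table of the same arrays, which correlates with the log2 signal at r = 0.9983 or more and served as an alternative.

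From these files, 3671 control spots and all outlier spots were left out (a value was dropped in 43 tested genes over the 11 arrays, among them Itgam in vehicle replicate 3), spots of a probe were averaged, and the array's 75th percentile was subtracted from log2 signal. That percentile ran from 4952.5 to 6735.8 in signal, 74.9% to 81.2% of probes were well above background, and no spot was saturated. Of 56605 probes 33895 were named by accession and 9953 by symbol or synonym through RefSeq (GRCm38.p6), and the others kept the name in the files. A gene was represented by its probe with the highest mean over the 16 arrays and tested where 5 or more of them had that probe well above background.

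Groups came from the treatment and time labels, and replicate numbers follow accession order. Limma 3.58.1 in R 4.3.3 fitted the 3 groups in 1 model with robust eBayes, and 2-sided p-values were corrected over all 30570 genes (Benjamini-Hochberg). Slide was added as a block beside it; within-slide values are differences of means. The procedure was tested on simulated data of this size, where it called 56 of 100 genes at a log2 change of 1 and 84 of 100 at 2. It also called 5 genes without a change. The simulated noise was normal and independent between genes, with no slide effect and no floor for dim spots, so these rates may not hold for the real arrays. The named genes are the 10 per direction with the smallest unadjusted p among genes that carry a symbol and have 3 or more arrays well above background in both groups, with Itgam and Itgb2; members of the integrin, IL-12, Reg and neutrophil lists, and up to 4 of each other list by smallest p, may be given. Not all genes this rule allows are printed, and 1 is left out as not reported here. Foxp3 lies outside this rule and was chosen after its values were seen, as were the tissue markers named as present. The comparison and the lists were chosen with earlier results of these data known. Alternatives changed the source of values, normalization, filter, probe rule, model and arrays. Leaving out vehicle replicate 2 and 48 h replicate 5 together, the 11 arrays with slide as a block, and single arrays left out of the blocked fit were chosen after seeing the data.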

Additional observations from a re-analysis of the deposited data

Results flagged for a closer look

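Of 312 sets of values, each a named gene or a list mean in the 10 day or the vehicle group, 12 had 1 array far from the others by Dixon's criterion, where 1 in 20 by chance would be 16. Vehicle replicate 2 was that array in 5 of the 12, and it is also the array whose title number, though not its description's, recurs in the 48 h group. It stood high for Cxcr2, at 0.83 against -0.35 for the next array, for Muc4, at -1.62 against -2.87, for the CXCR2 ligand list, at -0.42 against -0.84, and for hypoxia and glycolysis, at 2.66 against 2.21. It stood low for T cell recruiting chemokines, at 0.12 against 0.53.

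Vehicle replicate 3 stood low for Ptgs2, at 1.58 against 1.93, and high for T cell receptor genes, at 0.41 against -0.06. Vehicle replicate 4 stood low for the macrophage list, at 3.66 against 3.86, and for oxidative phosphorylation, at 2.47 against 2.74. Among the 10 day arrays, replicate 3 stood high for Reg3d, at -1.24 against -2.16. Replicate 4 stood low for Il1b, at 3.33 against 3.64, and for Ccl4, at 1.70 against 2.46.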

How the results depend on the processing

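The count of genes passing the adjusted threshold stayed at 0 under every alternative but the following. With no filter on dim probes it was 1, 4930448H16Rik, and when each array was left out in turn it ranged from 0 to 1, the 1 being A630052C17Rik without 10 day replicate 4 (limma, adjusted p = 0.00799). The number of genes lower at an unadjusted p under 0.05 ranged from 360 to 1111 over these fits, and from 357 (without 10 day replicate 5) to 2024 (without vehicle replicate 1) with slide as a block, where it was 1081 without 10 day replicate 1. The number higher ranged from 432 to 665, and from 506 to 679 with slide as a block.

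Alternatives were run for 104 of the genes given with values, not for Mpo, Elane, Ly6g and Foxp3, and 5 of the 104 had the opposite sign somewhere outside the within-slide values. Itgam was 0.03 with slide as a block, 0.03 in the authors' table, 0.08 averaged over probes, 0.07 without vehicle replicate 2 and 48 h replicate 5 together, and -0.08 to 0.07 with single arrays left out. Itgb2 ranged from -0.08 to 0.03 and Reg4 from -0.02 to 0.85. Rab11fip2 and Slx1b were -0.35 and -0.08 averaged over probes. The causes were not tested. No paired analysis was possible because the labels give no replicate numbers.

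Precision was limited by 5 and 6 arrays and by slide 1 holding 1 vehicle array. Of the 104 genes 13 were not well above background on some array and have only a bound there: Galr2, Platr27, Mtnr1a, Lhfpl4, Reg3g, Arhgap33os, Otoa, Fgb, Reg4, Csf3, Hbb-b2, Gbp6 and Prss1.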

Other observations

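The transcript 4930448H16Rik (probe on chromosome 5 from 143996308 to 143996367, mm9) was left out of the test because too few arrays had signal. Its probe was well above background on 4 of 6 vehicle arrays and on 0 of 5 arrays at 10 days and 0 at 48 h. The vehicle values ran from -5.86 to -4.25, while the 10 day values, from -8.03 to -7.96, only bound the level. Set against the lowest signal well above background on each array, vehicle came out at 1.52-fold higher or more. Not every vehicle array was well above background, and such arrays also only bound the level, so that figure is no firm minimum. Without the filter limma gave an adjusted p of 7.93e-05. That p rests on near-constant 10 day values and on 48 h arrays, with a mean of -8.02, that were also not above background. It is therefore no measure of the spread between samples.

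A630052C17Rik, with the smallest p of the tested genes, was well above background on 5 of 6 vehicle arrays, 1 of 5 at 10 days and 3 at 48 h. Its probe lies on chromosome 11 from 29071740 to 29071799 (mm9). The 10 day values were -7.11, -7.90, -7.94, -5.64 and -6.95, and the vehicle values ran from -5.43 to -4.27. The groups did not overlap, and replicate 4, the single 10 day array above background, lay nearest to vehicle.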
